A study of Mus musculus with 22 samples.

Results

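The dual-specificity phosphatase genes described here were Dusp1, Dusp2, Dusp4, Dusp5, Dusp6, Dusp7, Dusp8, Dusp10, Dusp14 and Dusp16. They were taken as every array probe whose RefSeq accession belongs to one of these symbols, which gave 12 of the 55681 probes on the array, because Dusp8 and Dusp16 had 2 probes each. All 10 genes were among the 22383 genes that entered the tests, so none was lost to the filter on dim probes.

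Dual-specificity phosphatases take phosphate off both the threonine and the tyrosine that activate a mitogen-activated protein (MAP) kinase, and they thereby switch off ERK, JNK and p38. Several of the genes are induced by the kinases that their products inactivate, which makes them a classic negative feedback arm of MAP kinase signalling, and Dusp1 is known in macrophages as a brake on cytokine production after contact with bacterial products. MK2 and MK3 (genes Mapkapk2 and Mapkapk3) are protein kinases that p38 activates, and they act on the other, downstream side of the same pathway.

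Transcript levels were measured on Agilent 1-colour arrays in mouse macrophages derived from bone marrow (BMDM), which grow out of marrow cells in culture with the growth factor M-CSF. The labels give the marrow donors as male C57BL/6 mice of 10 to 14 weeks, and all groups had received M-CSF (10 ng/ml) over 9 days. The wt group had no deletion, the MK2-/- group lacked MK2 and the MK2/3-/- group lacked both kinases. Each genotype was held for 360 min in medium alone or with 100 ng/ml lipopolysaccharide (LPS), a cell wall component of Gram-negative bacteria, which gave 4 medium and 3 LPS arrays for wt, 4 and 4 for MK2-/-, and 3 and 4 for MK2/3-/-. The labels do not say whether replicates came from separate animals, so the tests measure the spread between these arrays.

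The median processed signal per array ranged from 32.7 to 107.8, and 61.1% to 82.7% of probes were well above background. No spot was saturated and no spot of the 12 phosphatase probes was marked as an outlier. All 7 tested macrophage markers were well above background on every array, with a summed signal of 265700 to 729400. The summed signal was 3659 to 11860 for 5 T and NK cell markers, 241.6 to 1503 for 5 B cell markers, 7165 to 39470 for 7 neutrophil and progenitor markers, and 44990 to 144000 for 4 dendritic cell markers. The targeted gene Mapkapk2 had a log2 signal in medium of 11.92 ± 0.77 (SD, n = 4) in wt, 8.88 ± 0.13 (n = 4) in MK2-/- and 8.44 ± 0.09 (n = 3) in MK2/3-/-, and Mapkapk3 under LPS was at 12.12, 12.36 and 7.99, so both matched the labels. The Mapkapk2 signal still rose with LPS, by log2 3.04 in wt, 2.73 in MK2-/- and 2.57 in MK2/3-/-. Under LPS it differed from wt by -3.35 in MK2-/- and -3.95 in MK2/3-/-. In medium Mapkapk3 differed from wt by -1.95 in MK2/3-/-. Each genotype was hybridised on a slide of its own, so genotype and slide cannot be told apart in any comparison between genotypes, while the treatments within a genotype were run on the same slide. 3 arrays stood apart. In wt medium replicate 4 the mean log2 signal of 11 LPS-inducible genes was 11.32 against 7.73 to 9.28 in the other wt medium arrays, and in MK2-/- replicate 3, LPS and medium, none of 4 Y-linked genes was well above background although the labels say male. Where leaving these arrays out changed a call or strongly moved a printed difference, both values are given.

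For 9 of the 10 genes, all but Dusp4, the RefSeq table of GRCm38.p6 held a promoter window of 300 bases, from 250 bases before the start to 50 after it. The 3 windows below are printed because they hold the full-length matches to sites of kinase-regulated transcription factors among those searched. These are the cyclic AMP response element (CRE), TGACGTCA, which CREB and ATF proteins bind, and the CArG box, which serum response factor binds. Each sequence reads 5′ to 3′ on the strand of the gene, and capitals mark CRE, its shorter core TGACG on either strand, and CArG boxes.
Dusp1, chr17:26508423-26508722, minus strand: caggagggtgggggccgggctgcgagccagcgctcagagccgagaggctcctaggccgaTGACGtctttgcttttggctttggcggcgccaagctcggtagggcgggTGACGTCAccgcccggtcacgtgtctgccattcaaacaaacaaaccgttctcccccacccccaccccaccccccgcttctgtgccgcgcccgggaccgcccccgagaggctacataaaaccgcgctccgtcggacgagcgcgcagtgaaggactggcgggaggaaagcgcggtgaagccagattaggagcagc
Dusp5, chr19:53528895-53529194, plus strand: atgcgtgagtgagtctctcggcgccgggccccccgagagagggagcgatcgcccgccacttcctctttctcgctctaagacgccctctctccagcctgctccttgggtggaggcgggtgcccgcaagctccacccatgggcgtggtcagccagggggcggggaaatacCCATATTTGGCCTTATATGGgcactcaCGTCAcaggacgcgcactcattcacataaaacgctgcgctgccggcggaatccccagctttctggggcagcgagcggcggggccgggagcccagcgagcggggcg
Dusp8, chr7:142095235-142095534, minus strand: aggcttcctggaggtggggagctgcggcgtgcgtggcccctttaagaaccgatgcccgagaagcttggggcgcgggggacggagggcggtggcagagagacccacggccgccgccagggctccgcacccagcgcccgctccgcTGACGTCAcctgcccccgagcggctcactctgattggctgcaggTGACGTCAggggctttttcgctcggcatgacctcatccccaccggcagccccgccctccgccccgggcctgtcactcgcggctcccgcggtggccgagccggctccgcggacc

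A full CRE lay in the windows of Dusp1, with its first base at -143 from the start, and of Dusp8, at -107 and -63, while 1.79% of all 32851 mouse promoter windows held one. Every full CRE also counts as a core on both strands. A core was found in 5 of the 9 windows, those of Dusp1, Dusp2, Dusp5, Dusp8 and Dusp16, and in 20.8% of all windows. The Dusp5 window held a pair of adjacent CArG boxes at -82 and -72, against 1.63% of windows with at least 1. None of the 9 windows held an AP-1 site, TGANTCA (7.81% of all windows), a TATA box, TATAAA (13.6%), or a match to the degenerate kappaB site (8.46%). The GC content of the 9 windows was 57.3% to 78.7%, and the median of all windows was 52.7%. Both strands were searched, and a match describes the letters in the window only.

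LPS changed most of the phosphatase genes, and mainly upwards. Dusp1, Dusp2, Dusp5, Dusp14 and Dusp16 rose in all 3 genotypes. Dusp4 rose in MK2-/- and MK2/3-/-, Dusp10 rose in MK2/3-/-, Dusp7 rose in wt, and Dusp6 fell in MK2/3-/-. Dusp8 passed the test in no genotype. By limma's moderated test at an adjusted p below 0.05, the genes that rose were 6 of 10 in wt, 6 of 10 in MK2-/- and 7 of 10 in MK2/3-/-, where 18.6%, 17.7% and 20.3% of all 22383 genes rose. The genes that fell were 0, 0 and 1, where 23.2%, 26.7% and 27.5% of all genes fell, and at an unadjusted p below 0.05 Dusp6 was lower in wt as well. The median log2 difference over the 10 genes was 1.26 in wt, 2.32 in MK2-/- and 2.34 in MK2/3-/-, beside -0.04, 0.00 and 0.02 over all genes.

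**Figure D1:**
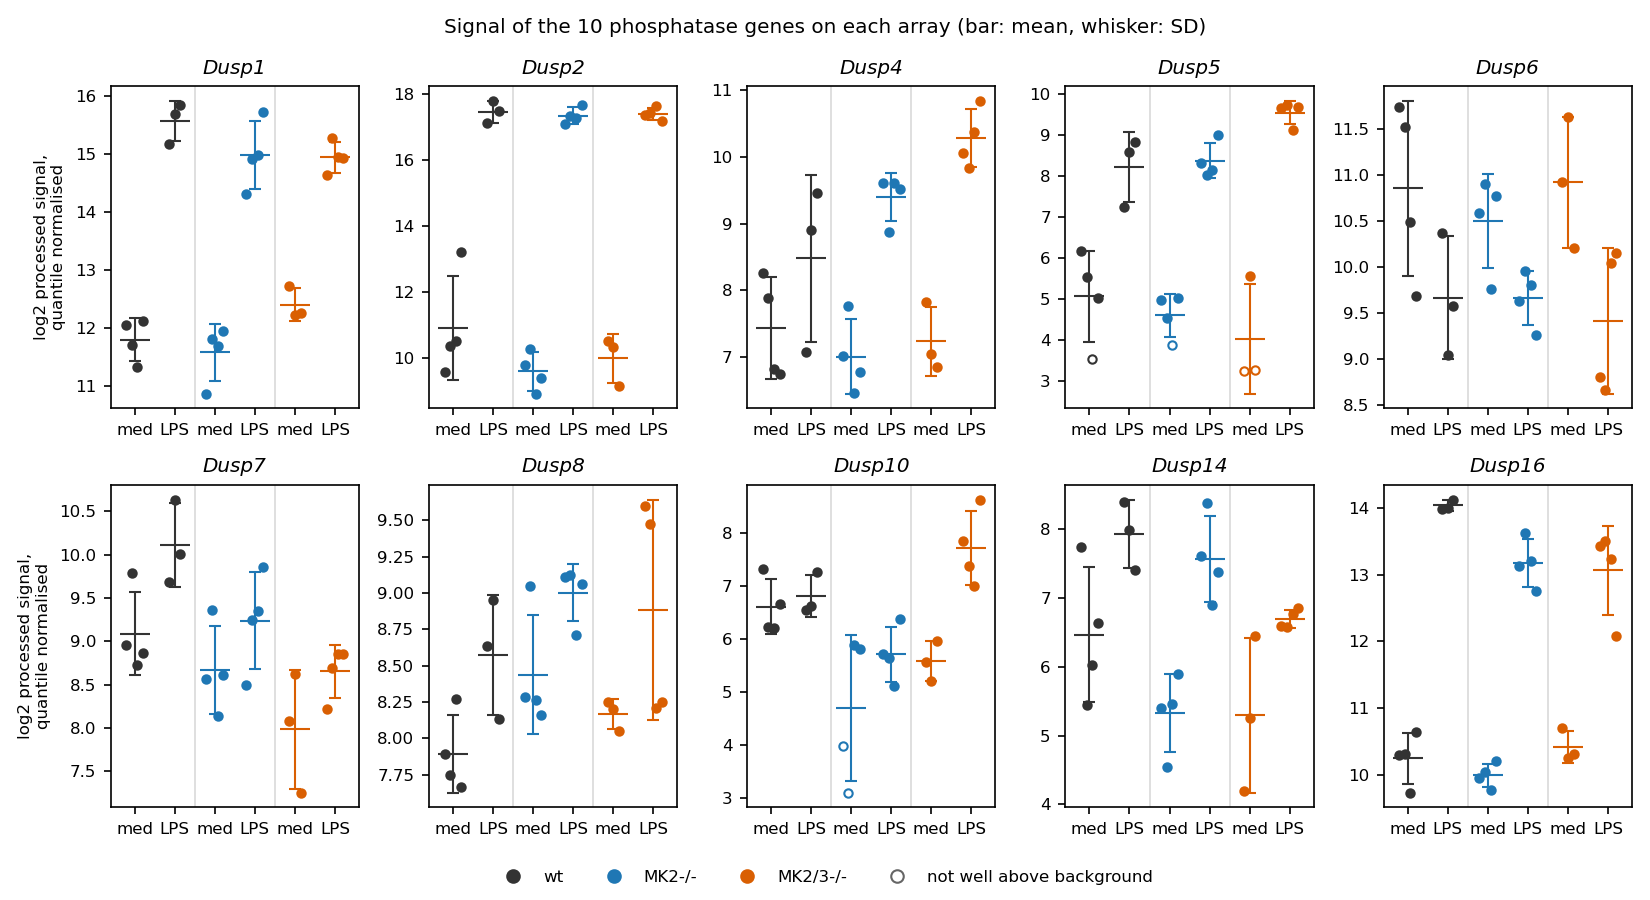
Log2 processed signal, quantile normalised over 22 arrays, of the 10 phosphatase genes (y axis, scale differs by panel) in medium (med) and LPS arrays of each genotype (x axis). Each point is an array, open points were not well above background, the bar is the group mean and the whisker the SD. Dusp1, Dusp2 and Dusp16 show LPS groups wholly above medium groups, while the points of Dusp7 and Dusp8 overlap.

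The first group of genes encodes nuclear phosphatases that are typically induced as immediate or early response genes: Dusp1, which acts on p38, JNK and ERK, Dusp2, which was first found in activated lymphocytes, Dusp4, which acts on ERK and JNK, and Dusp5, which is selective for ERK.

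The log2 signal of Dusp1 in wt was 12.05, 11.72, 11.33 and 12.12 on the medium arrays and 15.18, 15.70 and 15.85 on the LPS arrays. MK2-/- arrays had 10.87, 11.81, 11.70 and 11.95 in medium and 14.32, 14.91, 14.98 and 15.74 with LPS. MK2/3-/- arrays had 12.73, 12.23 and 12.27 in medium and 14.64, 15.28, 14.95 and 14.93 with LPS. Every LPS array lay above every medium array, and the MK2/3-/- arrays had the smallest gap, with the highest medium values and LPS values below those of the upper wt arrays. The rise was 13.7-fold in wt (log2 3.77, SE 0.31, adjusted p = 1.85e-08), 10.6-fold in MK2-/- (3.40, SE 0.29, adjusted p = 1.15e-08) and 5.81-fold in MK2/3-/- (2.54, SE 0.31, adjusted p = 1.39e-06). The response in MK2/3-/- was lower than that in wt by a log2 difference of -1.23 (SE 0.44) and an adjusted p of 0.231, which did not pass the test.

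Dusp2 had the largest LPS response of the 10 genes in each genotype. In wt the log2 signal was 9.56, 10.36, 10.51 and 13.20 in medium and 17.13, 17.79 and 17.50 with LPS. The MK2-/- values were 9.80, 10.28, 8.91 and 9.38 in medium and 17.09, 17.34, 17.29 and 17.68 with LPS. The MK2/3-/- values were 10.50, 10.32 and 9.14 in medium and 17.37, 17.43, 17.64 and 17.18 with LPS. The LPS arrays of all genotypes lay within a narrow band, and the single high medium value was wt replicate 4, the array whose LPS-inducible genes also stood high. The rise was 94.8-fold in wt (log2 6.57, SE 0.57, adjusted p = 3.98e-08), 216.5-fold in MK2-/- (7.76, SE 0.53, adjusted p = 7.91e-10) and 171-fold in MK2/3-/- (7.42, SE 0.57, adjusted p = 4.42e-09). Without wt medium replicate 4 the wt difference was 7.33 (adjusted p = 1e-10). Under LPS the genotypes differed by -0.12 (MK2-/- minus wt, 95% confidence interval -1.33 to 1.08), -0.07 (MK2/3-/- minus wt, -1.27 to 1.14) and 0.06 (MK2/3-/- minus MK2-/-, -1.06 to 1.17), none of which passed the test, and their sign turned on leaving out single LPS arrays.

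For Dusp4 the LPS arrays of wt and MK2-/- overlapped, and those of MK2/3-/- stood higher. The log2 signal in wt was 8.27, 7.89, 6.82 and 6.75 in medium and 7.07, 8.91 and 9.46 with LPS, so that 1 LPS array lay among the medium arrays. For MK2-/- the signal was 7.01, 7.77, 6.47 and 6.78 in medium and 9.61, 8.87, 9.61 and 9.52 with LPS. For MK2/3-/- the signal was 7.82, 7.05 and 6.85 in medium and 10.06, 9.84, 10.38 and 10.84 with LPS, where all 4 arrays were above every LPS array of the other genotypes. Dusp4 rose 5.25-fold in MK2-/- (log2 2.39, SE 0.45, adjusted p = 0.00022) and 8.20-fold in MK2/3-/- (3.04, SE 0.49, adjusted p = 3.77e-05). In wt the difference was 1.05 (SE 0.49, adjusted p = 0.0942), which did not pass the test, and it moved in both directions on leaving out single arrays. It was 1.75 (adjusted p = 0.00428) without wt LPS replicate 1. It was 1.33 (adjusted p = 0.0455) without wt medium replicate 1, 0.82 (adjusted p = 0.226) without wt medium replicate 4, and 0.56 (adjusted p = 0.444) without wt LPS replicate 3.

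Dusp5 was dim in medium and clearly measured with LPS. In wt the log2 signal was 6.16, 5.53, 3.54 and 5.04 in medium and 7.24, 8.59 and 8.82 with LPS. On the MK2-/- arrays it was 4.97, 4.53, 3.89 and 5.02 in medium and 8.32, 8.02, 8.15 and 8.99 with LPS. On the MK2/3-/- arrays it was 3.25, 5.57 and 3.27 in medium and 9.66, 9.73, 9.11 and 9.67 with LPS. All LPS arrays lay above all medium arrays, and the 4 MK2/3-/- LPS arrays were above every LPS array of wt and MK2-/-. The spot was not well above background on 1 of 4 wt, 1 of 4 MK2-/- and 2 of 3 MK2/3-/- medium arrays, so the size of the rise depends on signals near background there. The rise was 8.90-fold in wt (log2 3.15, SE 0.58, adjusted p = 0.000226), 13.6-fold in MK2-/- (3.77, SE 0.54, adjusted p = 9.48e-06) and 45.7-fold in MK2/3-/- (5.51, SE 0.58, adjusted p = 2.14e-07). The response in MK2/3-/- exceeded that in wt by 2.36 (SE 0.82, adjusted p = 0.217) and that in MK2-/- by 1.75 (SE 0.79, adjusted p = 0.545), and neither passed the test. With normexp background correction at an offset of 50 the rises were 1.83, 2.18 and 3.19 on the log2 scale in wt, MK2-/- and MK2/3-/- and still passed the test. The excess of the MK2/3-/- response over that in wt was then 1.37 (adjusted p = 0.0879), and with 75th percentile scaling it was 1.25 (adjusted p = 0.782).

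**Figure D2:**
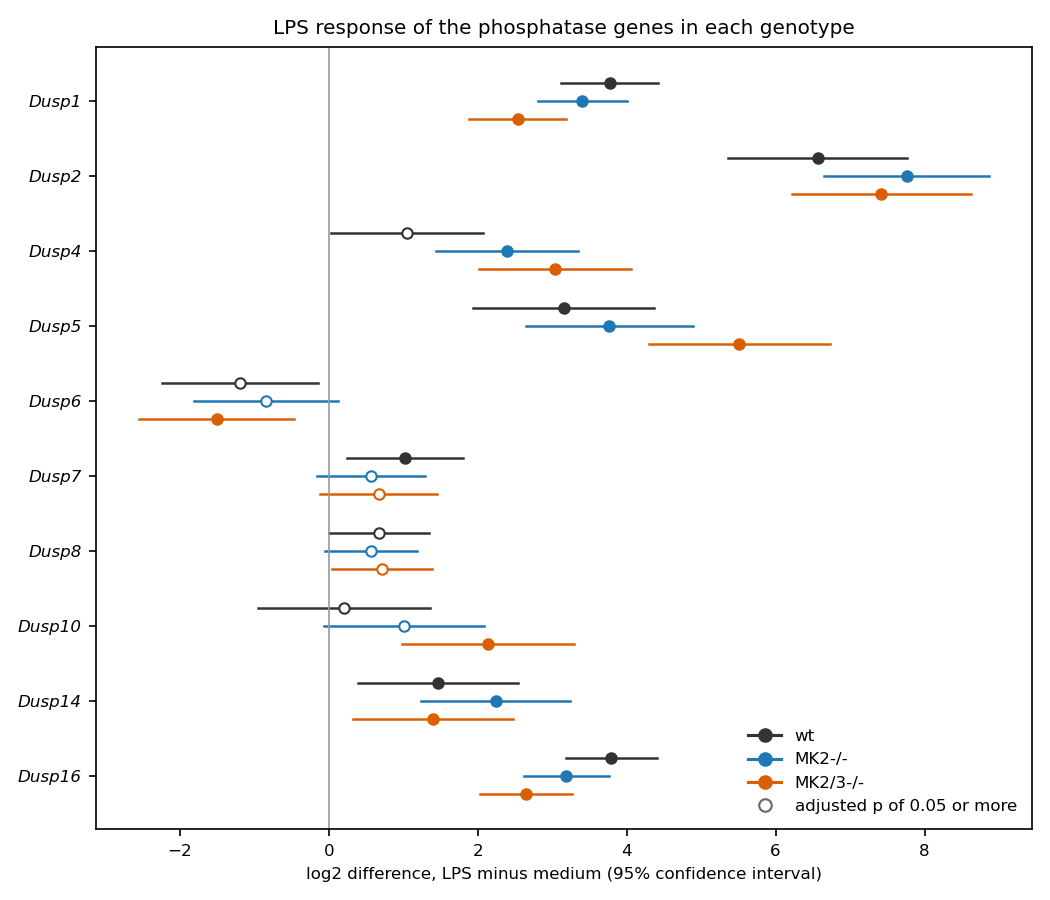
Log2 difference between LPS and medium arrays (x axis) of the 10 phosphatase genes in wt, MK2-/- and MK2/3-/-, with limma's 95% confidence interval as a line and open points where the adjusted p was 0.05 or more. Dusp2 lies furthest to the right in each genotype, from 6.57 to 7.76, and Dusp6 is the gene whose 3 points lie left of 0.

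The second group encodes cytoplasmic phosphatases that are selective for ERK, Dusp6 and Dusp7. Dusp6 was lower on average with LPS in every genotype, and passed the test in MK2/3-/-. There the log2 signal was 10.92, 11.63 and 10.21 in medium and 8.81, 8.66, 10.04 and 10.15 with LPS, so the groups did not overlap, though 2 LPS arrays lay just under the lowest medium array. The difference was -1.51 (SE 0.50, adjusted p = 0.0174). In wt the signal was 11.73, 11.52, 10.49 and 9.69 in medium and 10.37, 9.04 and 9.58 with LPS, with a difference of -1.19 (SE 0.50, adjusted p = 0.0628). MK2-/- arrays had 10.59, 10.90, 9.76 and 10.77 in medium and 9.63, 9.96, 9.80 and 9.27 with LPS, with a difference of -0.84 (SE 0.46, adjusted p = 0.155). In both of these genotypes the groups overlapped. Leaving out single arrays moved these calls. In MK2/3-/- the adjusted p was 0.053, 0.0579 and 0.107 without LPS replicate 1, LPS replicate 2 and medium replicate 2, and in wt the difference was -1.58 (adjusted p = 0.0141) without medium replicate 4 and -1.55 (adjusted p = 0.0324) without LPS replicate 1.

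Dusp7 rose 2.03-fold in wt, where the log2 signal was 8.96, 9.79, 8.73 and 8.86 in medium and 9.68, 10.63 and 10.01 with LPS. Medium replicate 2 lay above LPS replicate 1, so the groups overlapped. The difference was 1.02 (SE 0.37, adjusted p = 0.0339), and it no longer passed the test in 5 of 22 fits that left out an array (wt LPS replicate 2 or 3, or wt medium replicate 1, 3 or 4), with values of 0.76 to 1.07 and adjusted p of 0.0648 to 0.174. The MK2-/- difference was 0.57 (SE 0.35, adjusted p = 0.197), or 0.36 without the MK2-/- arrays of low Y-linked signal, and the MK2/3-/- difference was 0.67 (SE 0.37, adjusted p = 0.153). In MK2/3-/- the LPS arrays, at 8.21, 8.69, 8.86 and 8.85, did not reach the lowest wt LPS array.

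The third group encodes phosphatases that prefer JNK and p38 over ERK: Dusp8, Dusp10 and Dusp16. Dusp16 rose strongly in all genotypes. In wt the log2 signal of its brighter probe was 10.29, 10.31, 9.73 and 10.64 in medium and 13.98, 14.00 and 14.13 with LPS. The MK2-/- values were 9.94, 10.03, 9.77 and 10.20 in medium and 13.13, 13.62, 13.20 and 12.75 with LPS, and in MK2/3-/- it was 10.69, 10.24 and 10.31 in medium and 13.44, 13.51, 13.24 and 12.08 with LPS. The wt LPS arrays were tightly grouped, and every LPS array of the other genotypes lay below them. The rise was 13.9-fold in wt (log2 3.79, SE 0.29, adjusted p = 8.35e-09), 9.12-fold in MK2-/- (3.19, SE 0.27, adjusted p = 1.24e-08) and 6.27-fold in MK2/3-/- (2.65, SE 0.29, adjusted p = 3.83e-07). The response in MK2/3-/- was lower than in wt by -1.14 (SE 0.41, adjusted p = 0.24), which did not pass the test. The dimmer probe of Dusp16, which samples the same gene with other bases, gave differences of 3.98, 2.80 and 2.56 in wt, MK2-/- and MK2/3-/-, and followed the brighter probe with r = 0.974 over the 22 arrays.

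Dusp10 passed the test with LPS in MK2/3-/- alone. In wt the log2 signal was 7.31, 6.23, 6.21 and 6.66 in medium and 6.53, 6.62 and 7.26 with LPS, which overlapped throughout. For MK2-/- the signal was 3.98, 3.09, 5.88 and 5.81 in medium, the first pair not well above background, and 5.71, 5.63, 5.10 and 6.37 with LPS. MK2/3-/- arrays had 5.56, 5.20 and 5.96 in medium and 7.85, 7.38, 7.0 and 8.62 with LPS, with no overlap. The rise in MK2/3-/- was 4.40-fold (log2 2.14, SE 0.55, adjusted p = 0.00337). The wt difference was 0.20 (SE 0.55, adjusted p = 0.807) and turned to -0.023 without wt LPS replicate 3. The MK2-/- difference was 1.01 (SE 0.51, adjusted p = 0.121), and it was 1.61 (adjusted p = 0.0256) without the 2 MK2-/- arrays of low Y-linked signal, which brought the count of genes called in MK2-/- to 7. It was 0.48 (adjusted p = 0.434) without MK2-/- medium replicate 2, the lowest array, and 0.28 (adjusted p = 0.34) with normexp. In MK2/3-/- the rise with normexp was 1.26 (adjusted p = 0.000178). The response in MK2/3-/- exceeded that in wt by 1.93 (SE 0.78, adjusted p = 0.317), which did not pass the test.

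Dusp8 did not pass the test in any genotype. The log2 signal of its brighter probe ran from 7.66 to 8.27 in wt medium and from 8.13 to 8.95 in wt LPS, from 8.16 to 9.05 and from 8.71 to 9.13 in MK2-/-, and from 8.05 to 8.25 and from 8.21 to 9.60 in MK2/3-/-. The medium and LPS ranges overlapped in each genotype. The differences were 0.68 (SE 0.32, adjusted p = 0.0983) in wt, 0.56 (SE 0.30, adjusted p = 0.135) in MK2-/- and 0.72 (SE 0.32, adjusted p = 0.0724) in MK2/3-/-. In MK2/3-/- the LPS arrays fell into a high pair, at 9.60 and 9.48, and a low pair, at 8.21 and 8.25. Leaving out either array of the low pair gave 0.94 (adjusted p = 0.0201) or 0.93 (adjusted p = 0.0229), and in MK2-/- leaving out medium replicate 2 gave 0.77 (adjusted p = 0.0465). The dimmer Dusp8 probe gave -0.08, 0.61 and 0.51 in the 3 genotypes and followed the brighter probe with only r = 0.201 over 22 arrays, so the probes of this gene did not give the same picture.

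**Figure D3:**
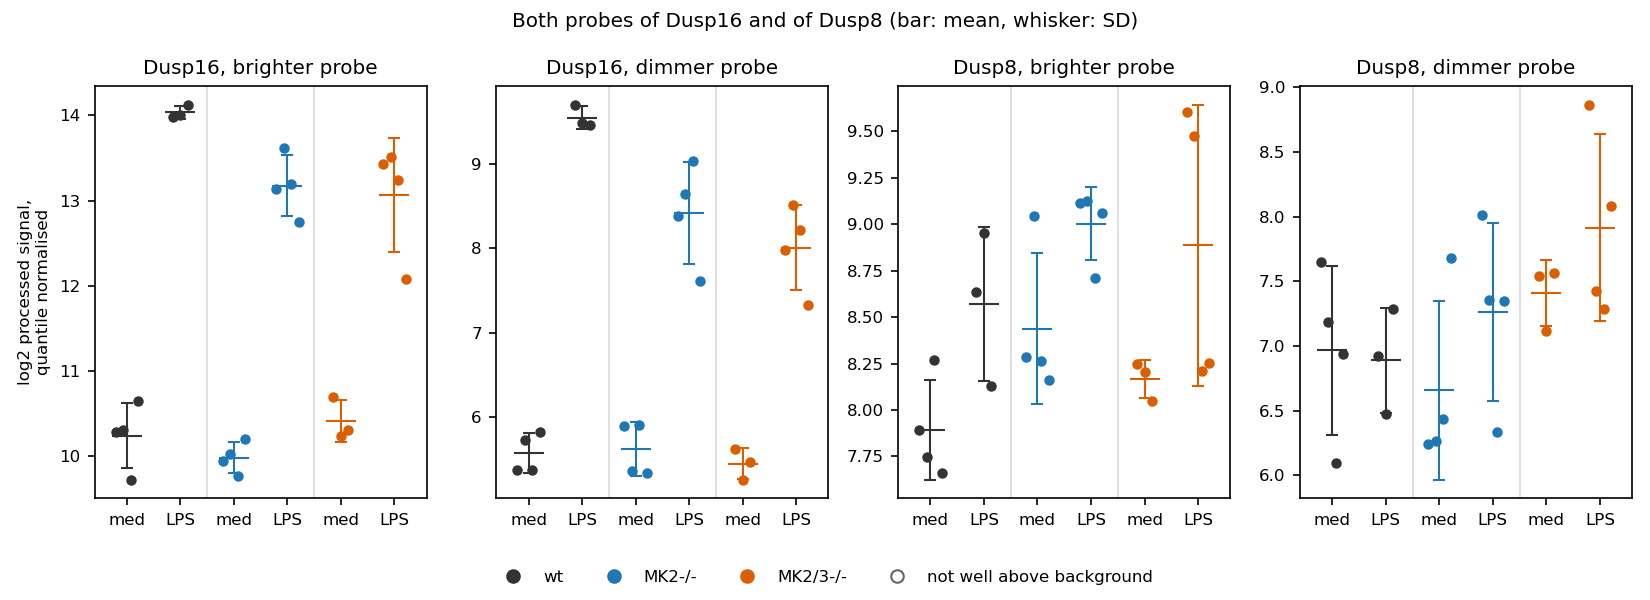
Log2 processed signal, quantile normalised (y axis, scale differs by panel), of both probes of Dusp16 and of Dusp8 in medium (med) and LPS arrays (x axis). Points are arrays, bars are group means and whiskers the SD, and both Dusp16 probes separate LPS from medium in every genotype, while the Dusp8 probes do not.

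Dusp14 encodes a small atypical member of the family that lacks the kinase-binding domain of the others. In wt the log2 signal was 7.74, 5.45, 6.03 and 6.64 in medium and 8.40, 7.98 and 7.40 with LPS. On the MK2-/- arrays it was 5.40, 4.55, 5.46 and 5.89 in medium and 7.61, 8.38, 6.90 and 7.37 with LPS, and in MK2/3-/- it was 4.19, 5.25 and 6.44 in medium and 6.58, 6.57, 6.76 and 6.85 with LPS. The LPS arrays were above the medium arrays in MK2-/- and MK2/3-/-, and in wt medium replicate 1 lay above an LPS array. The rise was 2.76-fold in wt (log2 1.46, SE 0.51, adjusted p = 0.0281), 4.72-fold in MK2-/- (2.24, SE 0.48, adjusted p = 0.000669) and 2.64-fold in MK2/3-/- (1.40, SE 0.51, adjusted p = 0.031). The wt call was lost on leaving out LPS replicate 1 or 2 or medium replicate 2 or 3 (1.12 to 1.44, adjusted p 0.071 to 0.104). The MK2/3-/- call was lost without LPS replicate 3 or 4 or medium replicate 1 or 2 (0.85 to 1.38, adjusted p 0.055 to 0.213).

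Markers of stromal cells moved with Dusp14 and Dusp10 in medium. The summed signal of the 5 tested markers of 6 (Col1a1, Col1a2, Col3a1, Dcn, Pdgfra and Pecam1) ranged from 840.9 to 99120 over the arrays. By group it was 3205 to 99120 in wt medium, 1593 to 25770 in MK2-/- medium and 840.9 to 45950 in MK2/3-/- medium. With LPS it was 11650 to 62890, 1726 to 19590 and 1767 to 31310. The log2 signal of Dusp14 and the mean log2 signal of these markers had a Pearson correlation of 0.926 over the 11 medium arrays and of 0.105 over the 11 LPS arrays. For Dusp10 these correlations were 0.708 and 0.271, and around the group means 0.585, against 0.646 for Dusp14. The brighter Dusp8 probe ran opposite to the same markers, with -0.580 over the medium arrays and -0.770 over the LPS arrays. The dimmer Dusp8 probe, which followed the brighter one with only r = 0.201, was not set against these markers. Over the 11 medium arrays the LPS-inducible genes also had a correlation of 0.619 with Dusp10 and 0.608 with Dusp14. Around the group means these were 0.111 and 0.229. The points share their array, and with mixed cells a larger share of a cell type and more RNA per cell cannot be told apart. The part of stromal cells in the Dusp8, Dusp10 and Dusp14 values was not tested.

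**Figure D4:**
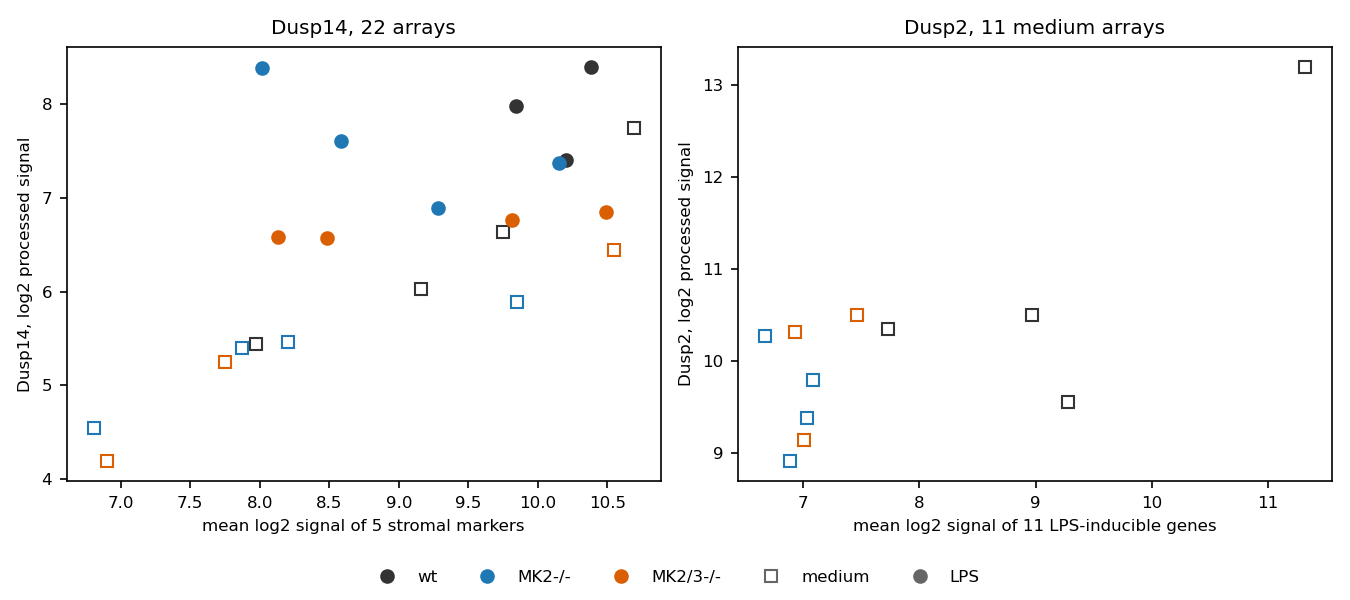
Left, log2 signal of Dusp14 (y axis) against the mean log2 signal of 5 stromal markers (x axis) on 22 arrays. Right, log2 signal of Dusp2 against the mean log2 signal of 11 LPS-inducible genes on the 11 medium arrays. Each point is an array, open squares are medium and filled circles LPS, and wt medium replicate 4 is the point at the upper right of the Dusp2 panel, at 11.32 and 13.20.

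The genotypes were then compared with each other. The question was whether loss of MK2, or of both MK2 and MK3, altered the levels of the phosphatases with LPS. In MK2/3-/- with LPS, Dusp4 was higher than in wt, and Dusp7 and Dusp16 were lower. That made 3 of 10 genes called, where 23.7% of all genes were called. The median log2 difference was -0.16 over the 10 genes and -0.03 over all genes. Between MK2-/- and wt, limma called none of the phosphatases (0 of 10, 0 by the methods' t-test after adjustment), where 11.6% of all genes were called. At an unadjusted p below 0.05 it was 2 of 10, where 29.6% of all genes passed. Between MK2/3-/- and MK2-/-, Dusp10 alone was called (1 of 10, higher in MK2/3-/-), where 13.8% of all genes were called.

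Dusp4 under LPS had a mean log2 signal of 10.28 ± 0.44 (SD, n = 4) in MK2/3-/-, 9.40 ± 0.36 (n = 4) in MK2-/- and 8.48 ± 1.25 (n = 3) in wt. The MK2/3-/- level was 3.47-fold that of wt (log2 1.80, SE 0.49, adjusted p = 0.0129), and it exceeded MK2-/- by 0.88 (SE 0.45, adjusted p = 0.214). The difference from wt rested on wt LPS replicate 1, the lowest LPS array, without which it was 1.09 (adjusted p = 0.105) and 1 of the 10 genes was called. Dusp5 stood in the same order, at 9.54 ± 0.29 (n = 4), 8.37 ± 0.43 (n = 4) and 8.22 ± 0.85 (n = 3). Its MK2/3-/- arrays lay above all others, yet the differences of 1.33 from wt (SE 0.58, adjusted p = 0.105) and of 1.17 from MK2-/- (SE 0.54, adjusted p = 0.157) did not pass the test. The difference from wt was 0.84 without wt LPS replicate 1.

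As a mean, markers of dendritic cells stood high on the same MK2/3-/- LPS arrays. The mean log2 signal of the 4 tested markers (Flt3, Zbtb46, Siglech and Xcr1) was 9.65 to 10.20 there, against 8.79 to 9.11 in wt LPS and 8.55 to 8.82 in MK2-/- LPS. Their summed signal overlapped, at 62510 to 78970, 50420 to 73930 and 44990 to 83610. In medium their mean log2 signal overlapped too, at 7.92 to 8.38 in MK2/3-/-, 7.99 to 8.47 in wt and 7.82 to 8.46 in MK2-/-. There 0 of the 4 were called between MK2/3-/- and wt. Xcr1 was well above background on each of the 4 MK2/3-/- LPS arrays and on 0 of the wt and MK2-/- LPS arrays. Of the 4 markers, Xcr1 alone was called higher in MK2/3-/- than in wt under LPS (2.54, adjusted p = 0.00141). Against MK2-/-, Xcr1 (2.71) and Flt3 (1.59) were called higher. The markers also changed with LPS itself. Between medium and LPS arrays, Zbtb46 rose by 3.69 in wt, 3.33 in MK2-/- and 5.14 in MK2/3-/-. Xcr1 rose by 3.49 in MK2/3-/-, and Flt3 fell in MK2-/- (-1.80). The mean log2 signal of these markers had a Pearson correlation of 0.771 with Dusp5, 0.826 with Dusp10 and 0.544 with Dusp4 over the 11 LPS arrays. Around the group means of all 22 arrays the correlations were -0.284, -0.458 and 0.095. For Dusp5 and Dusp4 the values over the LPS arrays were not particular to dendritic cell markers. The macrophage markers had 0.772 with Dusp5 and 0.539 with Dusp4 there, and a lower correlation with Dusp10 than the dendritic cell markers had. The 11 LPS-inducible genes ran opposite to each of these phosphatase genes over the LPS arrays, with -0.804 for Dusp5. Markers of B cells had a correlation of 0.831 with Dusp10 over the LPS arrays, where the mean log2 signal of 5 markers was 5.96 to 6.39 in MK2/3-/-, 5.68 to 6.28 in wt and 5.20 to 5.56 in MK2-/-. The part of dendritic cells and B cells in these values was not tested.

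Dusp7 under LPS fell in the reverse order of Dusp4, with 10.11 ± 0.48 (n = 3) in wt, 9.24 ± 0.56 (n = 4) in MK2-/- and 8.65 ± 0.30 (n = 4) in MK2/3-/-. The MK2/3-/- level was lower than wt by -1.46 (SE 0.37, adjusted p = 0.00897), and by -1.19 (adjusted p = 0.0511) without wt LPS replicate 2. The MK2-/- difference was -0.87 (SE 0.37, adjusted p = 0.127). Dusp7 was also lower in MK2/3-/- than in wt in medium, by -1.10 (SE 0.37, adjusted p = 0.131), which did not pass the test, and its LPS response there differed from that in wt by less than its SE.

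Dusp16 under LPS was at 14.04 ± 0.08 (n = 3) in wt, 13.18 ± 0.36 (n = 4) in MK2-/- and 13.07 ± 0.67 (n = 4) in MK2/3-/-. The MK2/3-/- level was lower than wt by -0.97 (SE 0.29, adjusted p = 0.022). This call was lost without wt LPS replicate 1 (-0.999, adjusted p = 0.0537) or replicate 3 (-0.93, adjusted p = 0.0665). It was also lost when limma was fitted to only the groups compared (adjusted p = 0.137). On leaving out an array the difference ranged from -1.12 to -0.64. The MK2-/- level was lower by -0.86 (SE 0.29, adjusted p = 0.0605), and that difference passed the test without MK2/3-/- LPS replicate 4 (adjusted p = 0.0168), an array that enters it only through the shared estimate of spread. With the dimmer probe the differences were -1.54 (adjusted p = 0.00129 over probes) and -1.13 (adjusted p = 0.0215), both called.

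Dusp10 under LPS was at 7.71 ± 0.70 (n = 4) in MK2/3-/-, 6.81 ± 0.40 (n = 3) in wt and 5.70 ± 0.52 (n = 4) in MK2-/-. The means of the knockouts thus lay on opposite sides of that of wt. MK2/3-/- exceeded MK2-/- by 2.01 (SE 0.51, adjusted p = 0.0141), which is 4.02-fold, and this was called in each of the 22 fits that left out an array. Its difference from wt was 0.91 (SE 0.55, adjusted p = 0.246) in MK2/3-/- and -1.10 (SE 0.55, adjusted p = 0.189) in MK2-/-, and neither passed the test. With 75th percentile scaling the MK2/3-/- difference from wt did pass (1.28, adjusted p = 0.0365).

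Dusp1 and Dusp14 under LPS were lower in MK2/3-/- than in wt by -0.63 (SE 0.31, adjusted p = 0.149) and -1.23 (SE 0.51, adjusted p = 0.0892), which did not pass the test. The Dusp14 difference did pass with normexp (-0.90, adjusted p = 0.0216) and when limma was fitted to only the groups compared (adjusted p = 0.0442). For Dusp1 the wt mean was 15.58 ± 0.35 (n = 3), and the groups overlapped. For Dusp14 the 4 MK2/3-/- arrays lay below every LPS array of the other genotypes. For Dusp6 and for the brighter Dusp8 probe the 3 LPS groups overlapped one another. With the dimmer Dusp8 probe the MK2/3-/- LPS arrays lay above every wt LPS array, and the difference of 1.02 (SE 0.45, adjusted p = 0.106 over probes) did not pass the test.

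**Figure D5:**
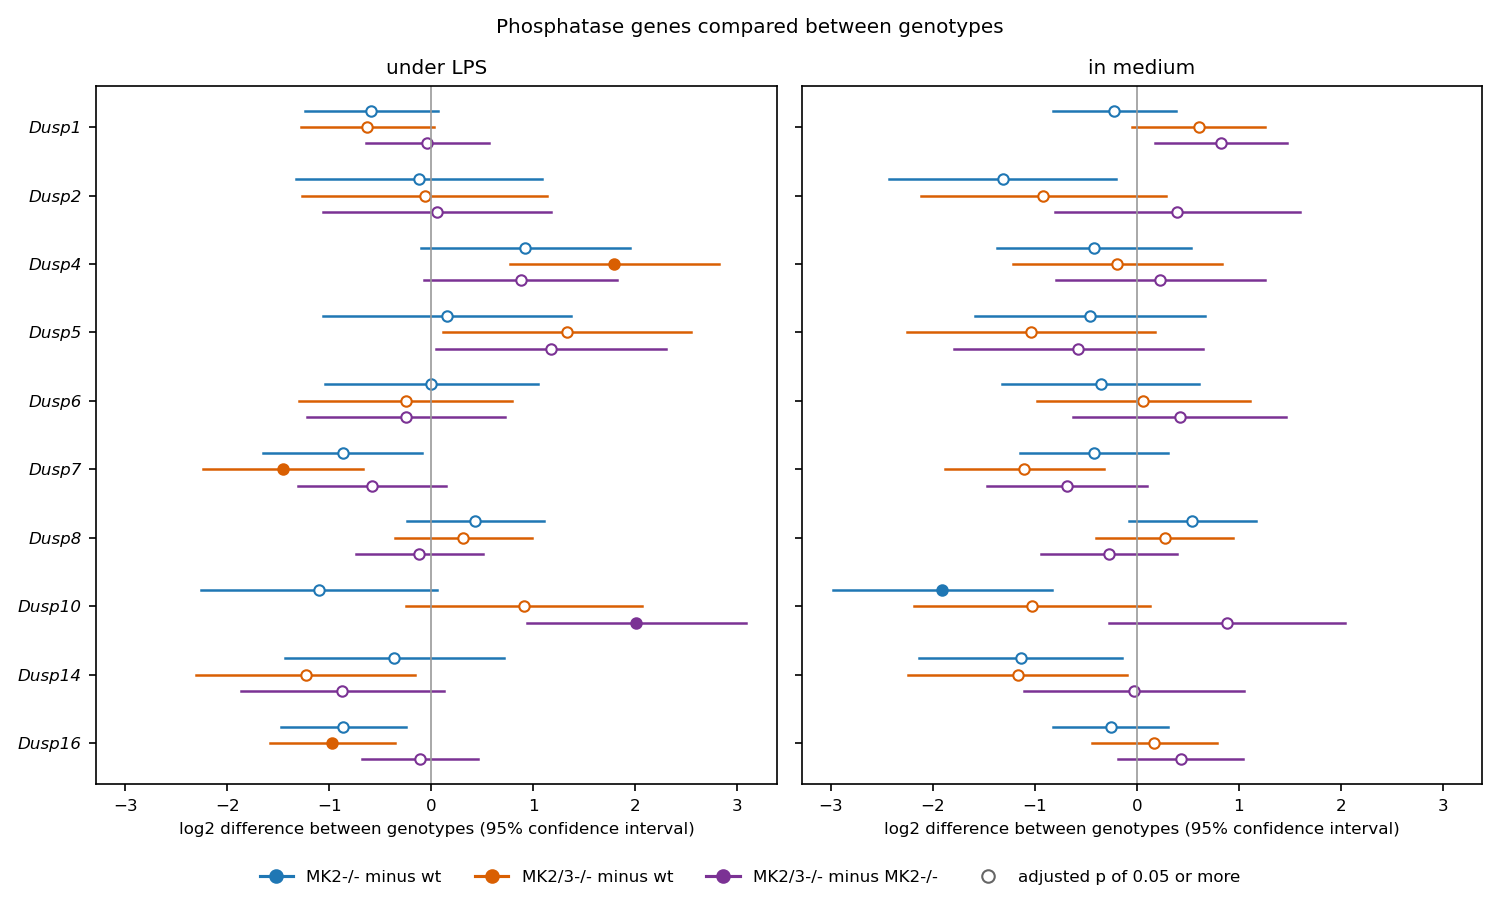
Log2 differences between genotypes (x axis) of the 10 phosphatase genes under LPS (left) and in medium (right), with limma's 95% confidence intervals as lines and open points where the adjusted p was 0.05 or more. Filled points are Dusp4, Dusp7, Dusp16 (MK2/3-/- minus wt) and Dusp10 (MK2/3-/- minus MK2-/-) under LPS, and Dusp10 (MK2-/- minus wt) in medium.

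In medium 1 difference of a phosphatase gene between genotypes passed the test, although the medians of both knockouts against wt lay below 0. The median log2 difference over the 10 genes was -0.42 for MK2-/- minus wt, -0.55 for MK2/3-/- minus wt and 0.31 for MK2/3-/- minus MK2-/-, beside -0.02, -0.03 and -0.03 over all genes. Dusp10 was lower in MK2-/- than in wt, at 4.69 ± 1.38 (SD, n = 4) against 6.60 ± 0.52 (n = 4), a difference of -1.91 (SE 0.51, adjusted p = 0.0288). On 2 of the 4 MK2-/- medium arrays its spot was not well above background, and the call was lost without MK2-/- medium replicate 1 or 2 or wt medium replicate 1 or 4 (-1.89 to -1.38, adjusted p 0.0617 to 0.104). With normexp the difference was -0.72 (adjusted p = 0.0566), and without the MK2-/- arrays of low Y-linked signal it was -2.30 (adjusted p = 0.017). As given above, Dusp10 also moved with the stromal markers and with the LPS-inducible genes in medium. Dusp10 was the 1 gene of 10 called between MK2-/- and wt, where 8.57% of all genes were called. Between MK2/3-/- and wt 0 of 10 were called by limma and by the methods' t-test after adjustment, where limma called 1.95% of all genes, and at an unadjusted p below 0.05 it was 2 of 10, where 17.1% of all genes passed. Between MK2/3-/- and MK2-/- 0 of 10 were called by limma and by the methods' t-test, where limma called 2.82%, and at an unadjusted p below 0.05 it was 1 of 10, where 15% passed.

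Some of the uncalled differences in medium were wide and depended on single arrays or on the scaling. Dusp2 in MK2-/- was lower than in wt by -1.31 (SE 0.53, adjusted p = 0.127), and by -0.55 (adjusted p = 0.341) without wt medium replicate 4. Its difference between MK2/3-/- and wt was -0.92 (SE 0.57, adjusted p = 0.437), and -0.15 without that array. Dusp14 differed from wt by -1.14 in MK2-/- (SE 0.48, adjusted p = 0.139) and by -1.17 in MK2/3-/- (SE 0.51, adjusted p = 0.249). Without wt medium replicate 1, the array with the highest sum of stromal markers, these were -0.71 and -0.74. Dusp5 in MK2/3-/- differed from wt by -1.04 (SE 0.58, adjusted p = 0.375), where its spots were near background, and with 75th percentile scaling this turned to 0.0071. Dusp10 in MK2/3-/- differed from wt by -1.03 (SE 0.55, adjusted p = 0.354), and by -0.40 with 75th percentile scaling.

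Whether the LPS response itself differed between genotypes was tested as an interaction, in which an additive effect of the slide cancels. No phosphatase gene was called. For MK2-/- against wt it was 0 of 10, where 0% of all genes were called, for MK2/3-/- against wt 0 of 10, where 0.652% were, and for MK2/3-/- against MK2-/- 0 of 10, where 0.0536% were. At an unadjusted p below 0.05 the counts were 0 of 10, where 7.3% of all genes passed, 5 of 10 (Dusp1, Dusp4, Dusp5, Dusp10 and Dusp16), where 11.3% passed, and 1 of 10 (Dusp5), where 8.62% passed. For MK2/3-/- against wt the difference of responses was positive for Dusp4 (1.99, SE 0.69, adjusted p = 0.218, or 1.28 without wt LPS replicate 1), as it was for Dusp5 and Dusp10, and negative for Dusp1 and Dusp16. The calls in one genotype and not in another, as for Dusp4, Dusp6, Dusp7 and Dusp10 with LPS, are therefore not shown to be differences between genotypes.

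Other genes of the pathway were described from fixed lists. Per list and comparison, at most the 3 called genes of largest difference are named. A genotype not given for a gene therefore does not mean that the gene failed the test there. Of 18 further phosphatases of the dual-specificity family, 16 were tested. With LPS 4 rose and 6 fell in wt, 3 and 6 in MK2-/-, and 4 and 6 in MK2/3-/-, with medians of -0.34, -0.23 and -0.17. Dusp3, an atypical phosphatase of ERK and JNK, fell in wt, MK2-/- and MK2/3-/-, with log2 differences of -3.27, -3.03 and -3.97 (adjusted p = 1.55e-07, 7.47e-08 and 7.28e-09). Dusp18 fell in the same order of genotypes, with -2.95, -2.92 and -2.36, and Dusp9, an ERK-selective phosphatase, fell in MK2-/- (-3.18) and MK2/3-/- (-3.33). Under LPS, Dusp9 was lower than in wt in both knockouts, by -2.06 (adjusted p = 0.018) in MK2-/- and -2.26 (adjusted p = 0.00441) in MK2/3-/-. More of these genes fell than rose in each genotype, as did more of all 22383 genes, where 18.6%, 17.7% and 20.3% rose and 23.2%, 26.7% and 27.5% fell.

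Of 10 tested phosphatases of other families that act on MAP kinases, 3 rose and 2 fell in wt, and 6 rose and 2 fell in each knockout, with medians of 0.13, 0.64 and 0.47. Ptpn2, a tyrosine phosphatase, rose by 0.99 in wt (adjusted p = 0.00146) and 1.32 in MK2-/- (adjusted p = 2.79e-05). Ppm1d, a p38 phosphatase, fell in wt, MK2-/- and MK2/3-/-, with -1.62, -1.29 and -1.84.

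Of the 13 MAP kinase genes, which include those of the substrates ERK, JNK and p38, 2 rose and 3 fell in wt, 2 and 2 in MK2-/-, and 2 and 3 in MK2/3-/-. The medians were -0.12, 0.14 and 0.09. Mapk14, which encodes p38 alpha, fell in wt, MK2-/- and MK2/3-/-, with log2 differences of -2.79, -2.94 and -4.88. Its response differed between MK2/3-/- and wt by -2.09 (SE 0.47, adjusted p = 0.0486). That call was lost without MK2/3-/- medium replicate 1, where 0 of all genes were called for this difference of responses. Under LPS the Mapk14 level in MK2/3-/- was lower than in wt by -2.21 (adjusted p = 0.00024). Mapk3, which encodes ERK1, fell as well, with -1.17, -1.58 and -1.33, and Mapk6 rose by 1.58, 1.76 and 1.52.

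Of the 23 genes for the kinases and adaptors above the MAP kinases, 5 rose and 9 fell in wt, 6 and 9 in MK2-/-, and 7 and 10 in MK2/3-/-, with medians of 0.04, -0.15 and -0.41. Map3k8, the kinase that leads from Toll-like receptors to ERK, rose by 3.72 in wt (adjusted p = 1.24e-09) and 3.40 in MK2-/- (adjusted p = 5.12e-10). Tab1, an activator of the kinase TAK1, fell in MK2-/- (-3.15) and MK2/3-/- (-3.63). Under LPS 1 of the 23 was higher and 9 were lower in MK2/3-/- than in wt, with a median of -0.51, where 9.4% of all genes were higher and 14.3% lower.

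Of the 21 genes that report or restrain ERK activity, 7 rose and 2 fell in wt, 8 and 2 in MK2-/-, and 6 and 2 in MK2/3-/-, with medians of 0.59, 0.55 and 0.07. Ier3, an immediate early gene, rose by 4.20, 4.80 and 4.24, and Spred1, an inhibitor of the Ras to ERK pathway, rose by 3.03 in wt and 3.31 in MK2-/-. Fos, a component of AP-1, fell in MK2/3-/- (-3.01, adjusted p = 2.77e-07), where it was among the 3 of largest difference. Spry4, another inhibitor of ERK signalling, was lower under LPS in both knockouts than in wt, by -2.07 (adjusted p = 0.0299) and -2.03 (adjusted p = 0.0171), while Spry2 was higher in MK2/3-/- by 1.99 (adjusted p = 0.00299).

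The 10 genes also varied together to different degrees, as a description over the 22 arrays, which share their treatment. Dusp1 and Dusp16 had a Pearson correlation of 0.960, Dusp2 and Dusp16 of 0.955, and Dusp1 and Dusp2 of 0.951. Around the group means these correlations were 0.147, 0.296 and 0.256, so the shared course was mainly that between medium and LPS arrays. Dusp4 and Dusp5 had 0.890 over arrays and 0.471 around the group means, and Dusp6 ran opposite to Dusp2 with -0.712.

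Among 17434 genes compared, the genes with the most similar profile over the 22 arrays were Oasl1 (r = 0.997), Rsad2 and Isg15, all interferon-induced, for Dusp2. They were Tcea1 (0.977), Ch25h and Spryd7 for Dusp1, Cited2 (0.943), Omp and Max for Dusp4, and Crybg1 (0.964) and Clcf1 for Dusp5. For Dusp6 they were Ctnnd1 (0.878), Spint1 and Ppid, for Dusp7 Polr3a (0.801), Slc12a9 and Efna2, and for Dusp8 D430041D05Rik (0.933), Nwd1 and 3930402G23Rik. Tgs1 (0.871), Fez2 and Cep170 were most like Dusp10, and Psmb10 (0.973), Gpd2 and Adora2b most like Dusp16. For Dusp14 they were Serpinb2 (0.931), Gja1 and Pdgfrb, the last a receptor known from stromal cells.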

How the data were processed

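The authors labelled total RNA with Cy3 and hybridised each sample to 1 Agilent array. The deposited scanner output, per the file headers from Feature Extraction 11.0.1.1 with a design on mm9, holds a processed intensity per spot, corrected for background. The deposited value table holds log2 values that the authors describe as quantile normalised with each probe centred on its median over samples, and served as an alternative. Groups came from the sample labels, although the design text names MK2-/- medium, not MK2/3-/- medium, as the group of 3.

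Control spots were left out, and spots marked as non-uniform or population outliers were set to missing. Log2 processed intensities were averaged per probe and quantile normalised over 22 arrays (R 4.3.3). Quantile normalisation gives every array the same distribution, and with scaling to the 75th percentile instead the median of all genes moved by 0.225 to 0.286 on the log2 scale in the LPS comparisons and by 0.127 for MK2/3-/- minus wt under LPS. RefSeq accessions were named through a RefSeq table of GRCm38.p6 (27509 of 29150 probes). A probe entered the fit if it was marked well above background on 3 or more arrays (28103 probes), and each gene was taken from its brightest probe on average. limma 3.58.1 was fitted with 6 group means, with Benjamini-Hochberg adjustment over 22383 genes and a two-sided threshold of 0.05. The fit was tested on simulated data with known changes. For the background alternative, normexp (offset 50) used the median spot and median background signal, since the files hold no mean spot signal.

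All members were named. From each list, at most the 3 genes of largest difference past the threshold were named per comparison, and for likeness the 3 genes of highest Pearson correlation, of which 1 is not reported here. Members, lists and tests were chosen with earlier results of these data known. The fit without 2 MK2-/- arrays was added after seeing the data.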

Additional observations from a re-analysis of the deposited data

Results flagged for a closer look

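In 4 of 40 groups of 4 arrays, 1 array stood apart from the other arrays of its group by more than Dixon's 95% critical value for the gap over the range. Chance alone flags about 1 group in 20. Dusp4 was lowest in MK2-/- LPS replicate 2, at a log2 signal of 8.87. Dusp5 was lowest in MK2/3-/- LPS replicate 3, at 9.11. Dusp8 was lowest in MK2-/- LPS replicate 3, at 8.71, the array with 2927 marked spots and one of the pair with low Y-linked signal, and was highest in MK2-/- medium replicate 2, at 9.05.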

How the results depend on the processing

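Over 14 other settings and 22 fits that each left out an array, Dusp1, Dusp2, Dusp5 and Dusp16 kept their rise with LPS in each genotype, Dusp4 kept its rise in both knockouts, Dusp14 in MK2-/- and Dusp10 in MK2/3-/-. The genotype comparisons depended more on the settings. For MK2/3-/- minus wt under LPS (3 of 10 genes called) the count was 5 with 75th percentile scaling, 5 with normexp and 0 with the methods' t-test, and 1 to 3 on leaving out an array. For MK2-/- minus wt under LPS (0) it was 1 with 75th percentile scaling, 1 with normexp, 3 with array weights and 1 with the probe of highest induction, and 0 to 1 on leaving out an array. For MK2/3-/- minus MK2-/- under LPS (1) it was 0 with the methods' t-test, 2 with normexp and 2 when only the groups compared were fitted. For MK2-/- minus wt in medium (1) it was 2 with array weights and 0 with the methods' t-test, with normexp or with only the groups compared, and 0 to 1 on leaving out an array. For MK2/3-/- minus wt in medium (0) it was 1 with 75th percentile scaling.

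Values near 0 changed sign on leaving out an array. The Dusp10 difference with LPS in wt ranged from -0.023 to 0.44, and the Dusp2 differences under LPS ranged from -0.29 to 0.036 (MK2-/- minus wt), from -0.24 to 0.092 (MK2/3-/- minus wt) and from -0.032 to 0.17 (MK2/3-/- minus MK2-/-). With 75th percentile scaling Dusp4, Dusp6 and Dusp8 also passed the test with LPS in wt (1.34, -1.24 and 0.84), as did Dusp10 in MK2-/- (1.31). With normexp Dusp14 lost its call in MK2/3-/- (0.60, adjusted p = 0.0769) and the Dusp5 level under LPS passed the test for MK2/3-/- minus wt (1.11, adjusted p = 0.00459) and minus MK2-/- (1.02, adjusted p = 0.00777). The MK2/3-/- call of Dusp14 was also lost with array weights (adjusted p = 0.0711), the methods' t-test (0.108) and only the groups compared (0.0511). Its wt call was lost with the methods' t-test (adjusted p = 0.131) and with only the groups compared (0.0668). With array weights Dusp4 passed the test with LPS in wt (1.65, adjusted p = 0.00275). The methods' t-test after adjustment called 4, 6 and 6 of the 10 genes with LPS in wt, MK2-/- and MK2/3-/-. Over all genes, MK2/3-/- minus wt under LPS had 5301 calls by limma and 68 by the methods' t-test, and MK2/3-/- minus wt in medium had 437, against 4200 with 75th percentile scaling, 166 by the methods' t-test and 20 without MK2/3-/- medium replicate 1. The cause of these changes was not tested.

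Arrays with the same replicate number within a genotype deviated together (Pearson correlation above 0.1) in 7 of 10 pairs, and those with the same sample letter in the scanner output in 7 of 10, against 5 of 30 pairs of different letters. Arrays of the same letter had the same age in 10 of 10 pairs, and the pair of low Y-linked signal shares a letter. The labels do not tie letters or numbers to animals, and not every pair deviated together, so the blocks stayed alternatives. With the replicate number as a random block, Dusp6 passed the test with LPS in wt (-1.24, adjusted p = 0.0433) and Dusp8 in MK2/3-/- (0.74, adjusted p = 0.0492), the latter also by letter (0.75, adjusted p = 0.0407), and no other call reported for the 10 genes changed under either block. Signals near background limit the Dusp5 and Dusp10 values in medium.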
